A study of Rattus norvegicus with 11 samples.

Results

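The granule exocytosis machinery is the set of proteins that docks insulin granules at the plasma membrane of the beta cell, prepares them and fuses them with it when calcium enters. Its genes were taken by name as 36 listed symbols, covering SNARE proteins, their syntaxin-binding partners, synaptotagmins, priming and docking proteins and a pair of granule membrane proteins. Of these, 34 had a probe with that single symbol, among 14324 genes with a single symbol on the array. Stx2, a target-membrane SNARE, and Cadps2, a priming protein, were not analysed here. The probe of highest mean stood for each gene.

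RNA came from islets of female Sprague-Dawley rats harvested at 13 weeks, and each array measured 1 RNA sample. The groups differ in the diet of the father: laboratory chow with 9% fat for 6 arrays (chow-father) and a high-fat diet (HFD) with 43% fat for 5 (HFD-father). Fathers of both groups were mated at 15 weeks with females on chow, and the daughters of both groups were weaned onto chow at 3 weeks, so no daughter ate the high-fat diet. Per the labels, daughters of HFD-fed fathers were glucose intolerant and released less insulin early after glucose. Nothing in the labels ties a sample number to a separate rat, litter or father, so the p-values measure the spread between these samples, which may in part be technical.

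In regulated secretion, a vesicle SNARE on the granule (Vamp2 in beta cells) zips together with the target-membrane SNAREs (Stx1a and Snap25) and pulls the membranes into contact. Syntaxin-binding proteins guide the assembly, priming proteins such as those of the Unc13 and Cadps genes make docked granules ready, complexins hold them, and synaptotagmins sense calcium. After fusion, Nsf and Napa take the SNARE complex apart for another round. The first phase of insulin release is known to draw on granules that are already docked and primed.

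The arrays carried the RNA of islets, with exocrine tissue in differing amounts. The insulin gene Ins1 lay between 14.18 and 14.34 on the log2 scale and the glucagon gene Gcg between 13.90 and 14.13, at the top of all probes. Acinar markers, mostly genes of digestive enzymes (25 of 29 listed measured), had a mean between 11.56 and 13.18 in chow-father and between 12.50 and 13.17 in HFD-father arrays. Chow-father 4 had by far the lowest acinar mean (11.56). The lymphocyte marker mean of HFD-father 1 was 6.09, against 4.85 to 5.16 on the other 10 arrays. In RNA of whole islets, fewer cells of a type and less RNA per cell cannot be told apart. Schwann cell and nerve markers had means of 5.58 to 5.78 in chow-father and 5.66 to 5.75 in HFD-father arrays, and 7 of 12 measured had an unadjusted p under 0.05 for father diet, 4 higher and 3 lower, against 8.25% of all genes, with 0 called. The part of these other cells in the differences below was not tested. Sample numbers form 2 ranges, called runs here: the first holds 8 arrays, the second HFD-father 5 with chow-father 5 and 6. Differences within each run stand beside the main ones.

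Promoter sequences are shown for members described below, since many genes of regulated exocytosis in nerve and endocrine cells are known to carry RE1, the site of the repressor REST, and several secretory genes carry a cyclic AMP response element. RefSeq's table for GRCr8 (250 bases before to 50 after the gene start) held 27 of the 34 measured members. A search of 9 short motifs on both strands found TTCAGCACC, the left part of RE1 in the usual reading direction, in 2 of the 27 members (Ptprn2 and Unc13a) and in 0.379% of 27457 promoters of the same length. The right part, the capitals of Pclo below, lay in 2 members (Pclo and Ptprn2) and in 0.149% of promoters. The cyclic AMP response element TGACGTCA lay in Napa and Vamp1 and in 1.91% of promoters, and its shorter form TGACG, which it contains, in 11 members and 22.0%. GGGCGG was found in 18 members (34.9% of promoters), CACGTG in 4 (6.65%), CAGCTG in 8 (15.1%), TATAAA in 1 (14.3%) and the NRF1 palindrome in 0 (0.932%). A match is a run of letters and not a measured binding site. The 250 bases before the start of the granule membrane genes Ptprn2 (GRCr8 chr6:143582318-143582567, plus strand) and Ptprn (chr9:84204824-84205073, minus strand) and of the vesicle SNARE gene Vamp1 (chr4:159698644-159698893, plus strand) are printed 5′ to 3′ along the gene, with 30-base windows of Unc13a (chr16:18415764-18415793, minus), Pclo (chr4:21005062-21005091, minus) and Napa (chr1:85915366-85915395, plus). Capitals mark the RE1 parts, which read as the reverse complement here, or TGACGTCA.
Ptprn2: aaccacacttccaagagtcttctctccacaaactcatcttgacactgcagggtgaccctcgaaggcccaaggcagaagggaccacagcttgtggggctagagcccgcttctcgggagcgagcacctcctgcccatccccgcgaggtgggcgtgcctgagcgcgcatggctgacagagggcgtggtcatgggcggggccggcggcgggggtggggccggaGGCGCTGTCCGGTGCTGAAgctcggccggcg
Ptprn: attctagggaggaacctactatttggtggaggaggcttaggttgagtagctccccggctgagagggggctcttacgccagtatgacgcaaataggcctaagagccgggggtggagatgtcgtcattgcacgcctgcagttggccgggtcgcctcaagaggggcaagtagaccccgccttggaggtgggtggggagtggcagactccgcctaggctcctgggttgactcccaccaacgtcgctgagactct
Vamp1: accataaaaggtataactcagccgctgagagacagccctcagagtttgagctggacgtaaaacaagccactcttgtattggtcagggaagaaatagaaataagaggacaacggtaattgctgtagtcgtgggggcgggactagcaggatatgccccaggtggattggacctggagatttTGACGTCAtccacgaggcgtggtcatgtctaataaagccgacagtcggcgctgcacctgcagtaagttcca
Unc13a: ccgcgcccccGGTGCTGAAgcgacatggcc
Pclo: agggtgtgagaagcttccctGGCGCTGTCC
Napa: cagacccgggTGACGTCAacgtagcgggcg
In Ptprn2 the right and the left part of RE1 stand directly side by side, at positions 220 to 229 and 230 to 238 of the printed stretch, where the full RE1 has a short spacer between them. The matches of Unc13a and Pclo lie after the gene start. The 250 bases of Ptprn, the closest relative of Ptprn2 in the list, hold neither.

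Levels of the exocytosis genes were close in the 2 groups. Limma called 0 of the 34 members at an adjusted p of 0.05, as it called 0% of all genes, and the lowest adjusted p of a member was 0.483. At an unadjusted p under 0.05 there were 2 members (5.88%), Rims1 and Ptprn, below the 8.25% of all 14324 genes. The father-diet difference (log2 level under HFD-father minus that under chow-father) had a median of -0.01 over the members and 0.00 over all genes. It was above 0 in 14 members and below 0 in 20 (58.8%, against 48.1% of all genes). That split depended on the processing. After quantile normalization 12 were above 0 and 22 below (64.7%, against 49% of all genes). After median centring 21 were above and 13 below (38.2%, against 37.2%), and with the acinar mean as covariate 20 and 14 (41.2%, against 47.8%). In 0 of 34 members were the groups free of overlap, against 0.887% of all genes. In this fit 24 members had a 95% interval wholly within 0.25 of 0 on the log2 scale and all 34 within 0.35. The farthest bound was 0.34, or 1.27-fold. Each interval covers a single gene and does not count the centring per run described below. It can thus be too narrow, and larger differences are not excluded.

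**Figure D1:**
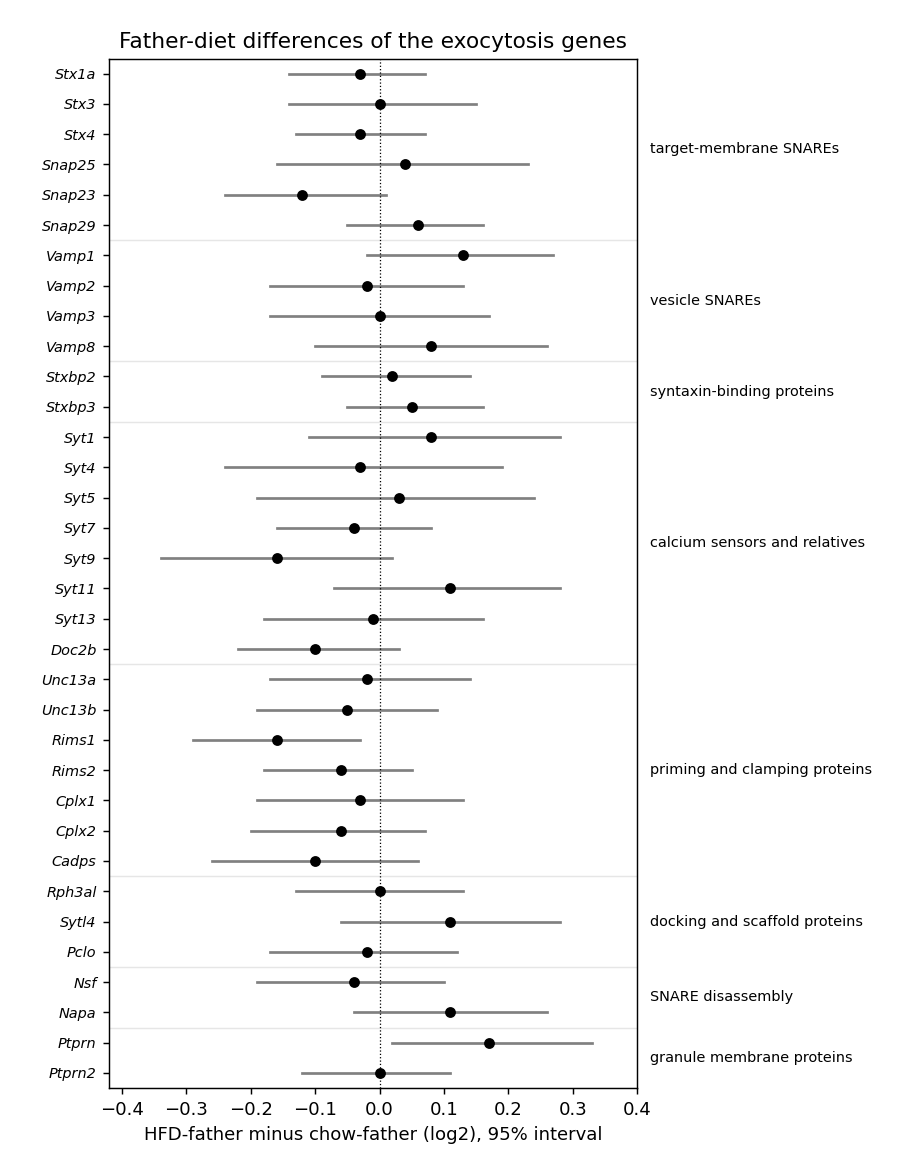
The horizontal axis gives the difference between HFD-father (n = 5) and chow-father (n = 6) arrays in log2 units for 34 exocytosis genes, grouped by role, with points for the estimate and bars for limma's 95% interval. Intervals of Rims1 (-0.29 to -0.03) and Ptprn (0.02 to 0.33) leave out 0, and those of the other 32 include it.

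Among the target-membrane SNAREs (6 of 7 measured), 3 differences were above 0 and 3 below, from -0.12 to 0.06. Stx1a, the syntaxin of the release site, had a lowest, median and highest log2 level of 7.39, 7.44 and 7.50 in chow-father arrays. HFD-father arrays 1 to 5 read 7.42, 7.43, 7.52, 7.34 and 7.33. The groups overlapped, and the difference was -0.03 ± 0.05 (SE; adjusted p = 0.863 with limma). A second probe row listed for Stx1a gave the same mean, difference and p to the digits shown, so it is not counted as a separate measurement.

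Snap25, the partner of Stx1a in the fusion complex, ran from 10.53 over a median of 10.63 to 10.95 in chow-father arrays. HFD-father arrays 1 to 5 read 10.51, 10.70, 10.93, 10.73 and 10.73, a difference of 0.04 ± 0.09 (SE; adjusted p = 0.931). Its highest values, 10.95 and 10.93, stood in chow-father 4 and HFD-father 3, 1 array of each group. Snap23, the relative of Snap25 that most cell types use, ran from 6.04 over 6.14 to 6.27 in chow-father arrays and read 6.01, 5.96, 6.11, 6.06 and 6.03 in HFD-father arrays 1 to 5. Each of the 5 lay under the chow-father mean of 6.15, but HFD-father 3 and 4 lay inside the chow-father range. The difference was -0.12 ± 0.06 (SE; adjusted p = 0.549), with -0.12 in the first run and -0.10 in the second. A two-sided exact permutation test gave an unadjusted p of 0.0571 over the 210 splits within runs. Over all 462 splits it gave 0.0455, but these also exchange arrays between runs that were centred separately, so that p is not exact. Stx3, which also serves granule fusion, Stx4, a syntaxin of plasma membrane fusion in many tissues, and Snap29, a SNARE of internal membranes, differed by 0.00, -0.03 and 0.06.

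Of the 4 vesicle SNAREs, Vamp2, the main one of insulin granules, ran from 8.20 over 8.30 to 8.55 in chow-father arrays. HFD-father arrays 1 to 5 read 8.17, 8.27, 8.31, 8.38 and 8.42, and the difference was -0.02 ± 0.07 (SE; adjusted p = 0.946). Its direction differed between the runs, with -0.08 in the first and 0.15 in the second. Vamp1, a close relative of Vamp2 known from neurons, ran from 7.28 over 7.49 to 7.62 against 7.60, 7.45, 7.63, 7.56 and 7.67. HFD-father 2 alone lay below the chow-father mean of 7.46, and the difference was 0.13 ± 0.07 (SE; adjusted p = 0.583). Vamp3, of recycling endosomes, and Vamp8, of endosomes and of granules in exocrine cells, differed by 0.00 and 0.08. The syntaxin-binding genes Stxbp2 and Stxbp3, which steer syntaxins into the complex, differed by 0.02 and 0.05.

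Calcium sensors and their relatives (8 genes) had differences from -0.16 to 0.11, with 3 above 0 and 5 below. Syt7, the high-affinity calcium sensor of insulin granules, ran from 9.48 over 9.57 to 9.68 in chow-father arrays and read 9.44, 9.52, 9.65, 9.56 and 9.55 in HFD-father arrays 1 to 5. The groups overlapped almost fully, and the difference was -0.04 ± 0.06 (SE; adjusted p = 0.861). Syt9, another calcium sensor reported on insulin granules, ran from 6.61 over 6.76 to 7.04 against 6.61, 6.85, 6.44, 6.63 and 6.68. In 4 of 5 HFD-father arrays it lay below the chow-father mean of 6.80. The difference was -0.16 ± 0.08 (SE; adjusted p = 0.578), -0.20 in the first run and -0.07 in the second.

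Doc2b, a soluble calcium-binding protein that joins SNARE complexes in beta cells, ran from 5.33 over 5.44 to 5.55 in chow-father arrays and read 5.25, 5.40, 5.32, 5.49 and 5.29 in HFD-father arrays 1 to 5. The difference was -0.10 ± 0.06 (SE; adjusted p = 0.642), and HFD-father 4 lay above the chow-father mean. Only 36.4% of probes had a lower mean than that of Doc2b, and the files hold no detection call. Syt1, the fast calcium sensor of synapses, Syt5 of dense-core granules and Syt11, which does not bind calcium, differed by 0.08, 0.03 and 0.11. Syt4 and Syt13, relatives also known from endocrine cells, differed by -0.03 and -0.01. Between arrays of the same group, Syt5 varied most of the 34 members (SD 0.181 on the log2 scale) and the syntaxin Stx4 least (0.053), with a median of 0.109 over members and 0.119 over all genes.

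**Figure D2:**
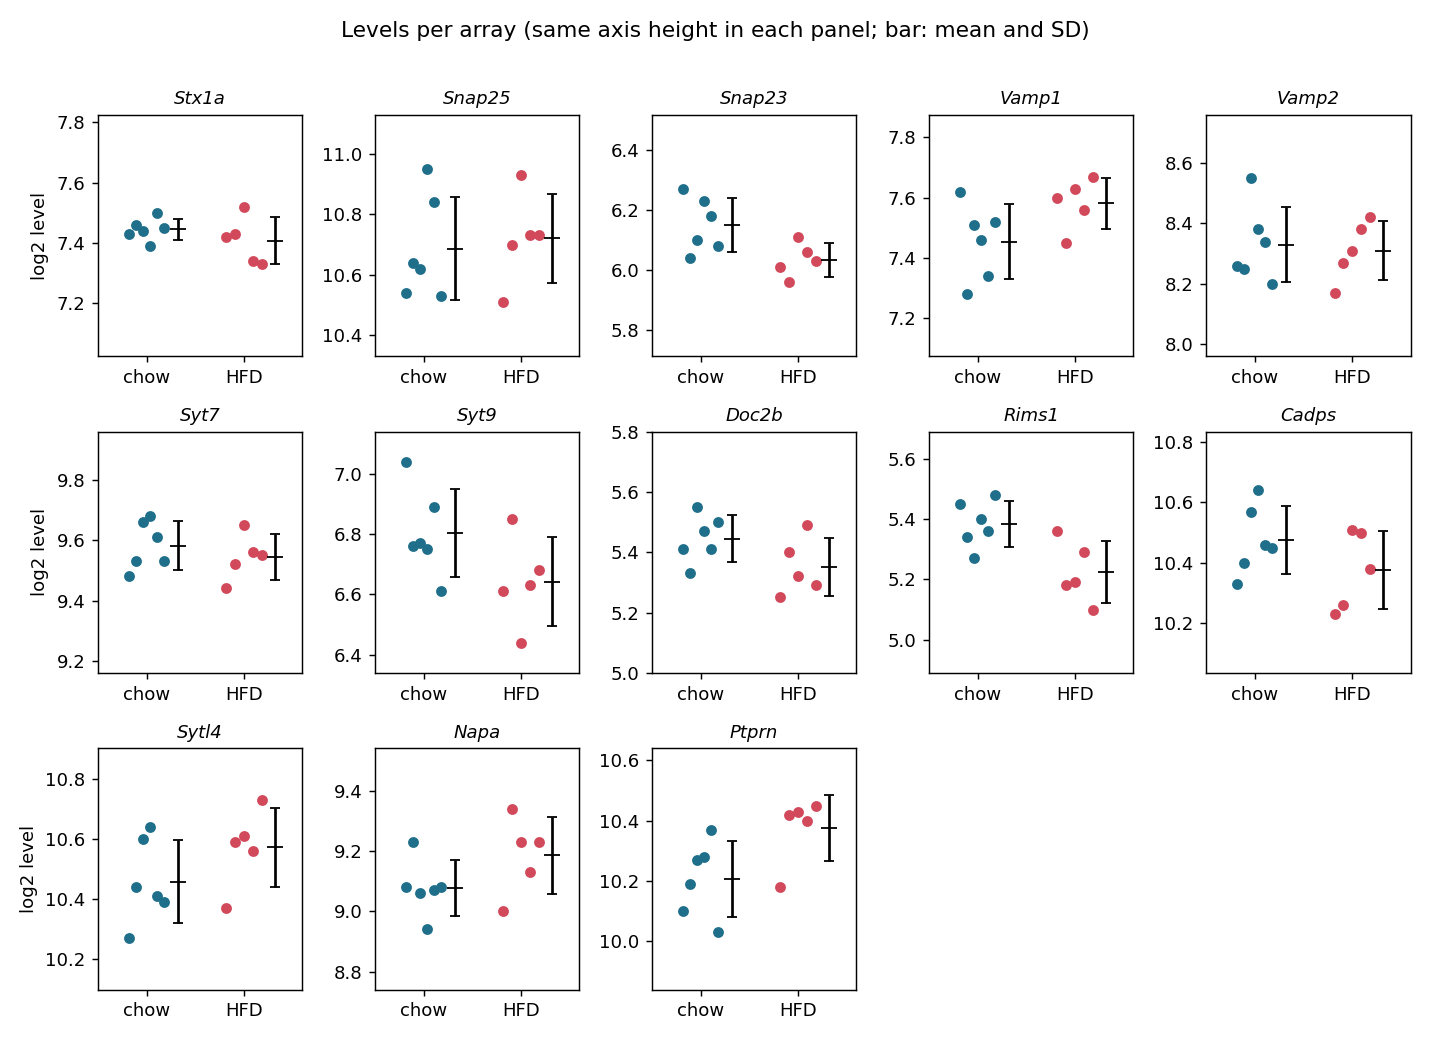
Each panel gives the log2 level of a gene in the 6 chow-father and 5 HFD-father arrays (points), with the group mean and SD as a bar beside them, on axes of equal height. The ranges of the groups overlap in all 13 panels, and for Ptprn 4 of 5 HFD-father points lie above the highest chow-father point.

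The 7 measured priming and clamping genes all had differences below 0 (48.1% of all genes), from -0.16 to -0.02 with a median of -0.06. After quantile normalization and after median centring, 6 of 7 stayed below 0. Within runs, Unc13a (0.01) was above 0 in the first, and Cplx1 (0.09) and Cplx2 (0.03) were in the second. None of the 7 was called, and 1 had an unadjusted p under 0.05. That gene was Rims1, a scaffold of the release site that ties granules, Rab proteins and calcium channels together. Rims1 ran from 5.27 over 5.38 to 5.48 in chow-father arrays and read 5.36, 5.18, 5.19, 5.29 and 5.10 in HFD-father arrays 1 to 5. All 5 lay below the chow-father mean of 5.38, while HFD-father 1 and 4 stood inside the chow-father range.

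The difference of Rims1 was -0.16 ± 0.06 (SE; interval -0.29 to -0.03, 0.896-fold) with an adjusted p of 0.483. It was -0.11 in the first run and -0.32 in the second, which has 1 HFD-father array. The two-sided exact permutation p, unadjusted, was 0.0333 within runs. Over all 462 splits, which also exchange arrays between the separately centred runs, it was 0.026 and is not exact. Only 34.6% of probes had a lower mean, so the probe sits in the dim part of the scale. Rims2, the relative of Rims1 that beta cells are known to use, differed by -0.06 ± 0.05 (SE; adjusted p = 0.732), with a mean of 8.32 in chow-father and 8.26 in HFD-father arrays.

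Cadps, which primes dense-core granules, ran from 10.33 over 10.46 to 10.64 in chow-father arrays and read 10.23, 10.26, 10.51, 10.50 and 10.38 in HFD-father arrays 1 to 5. HFD-father 1 and 2 lay below every chow-father array, and HFD-father 3 and 4 above the chow-father mean. The difference was -0.10 ± 0.07 (SE; adjusted p = 0.692). Unc13a and Unc13b, which open syntaxin for assembly, differed by -0.02 and -0.05, and the complexin genes Cplx1 and Cplx2 by -0.03 and -0.06.

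Among docking proteins, Sytl4, also called granuphilin, links Rab GTPases on the granule to the syntaxin complex. Sytl4 ran from 10.27 over 10.42 to 10.64 in chow-father arrays and read 10.37, 10.59, 10.61, 10.56 and 10.73 in HFD-father arrays 1 to 5. HFD-father 5 held the highest value, and HFD-father 1 lay below the chow-father mean of 10.46. The difference was 0.11 ± 0.08 (SE; adjusted p = 0.678), 0.05 in the first run and 0.33 in the second. Rph3al, another Rab-binding protein of granules, and Pclo, a large scaffold of release sites, differed by 0.00 and -0.02.

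Of the SNARE disassembly genes, Napa, the adaptor that brings Nsf to spent complexes, ran from 8.94 over 9.08 to 9.23 in chow-father arrays. HFD-father arrays 1 to 5 read 9.00, 9.34, 9.23, 9.13 and 9.23, and 4 of 5 lay above the chow-father mean. The difference was 0.11 ± 0.07 (SE; adjusted p = 0.646), and that of the ATPase gene Nsf was -0.04 ± 0.07 (SE).

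Ptprn and Ptprn2 encode granule membrane proteins of the receptor phosphatase family that support granule content and are known autoantigens of type 1 diabetes. Ptprn ran from 10.03 over 10.23 to 10.37 in chow-father arrays and read 10.18, 10.42, 10.43, 10.40 and 10.45 in HFD-father arrays 1 to 5. HFD-father 2 to 5 lay above every chow-father array, and HFD-father 1 below the chow-father mean of 10.21. The difference was 0.17 ± 0.07 (SE; interval 0.02 to 0.33, 1.13-fold) with an adjusted p of 0.498, and it was 0.15 in the first run and 0.25 in the second. The two-sided exact permutation p, unadjusted, was 0.0667 within runs. Over all splits, which also exchange arrays between the separately centred runs, it was 0.0498 and is not exact. The mean of Ptprn2 was 11.30 ± 0.07 (SD, 6 arrays) under chow-father and 11.29 ± 0.08 (SD, 5 arrays) under HFD-father, a difference of 0.00 with an interval from -0.12 to 0.11.

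The count of 2 members at an unadjusted p under 0.05 rested on single arrays. Without HFD-father 1 it was 5, with Syt11 (0.18), Sytl4 (0.16) and Napa (0.16) joining Rims1 (-0.19) and Ptprn (0.22), and the adjusted p-values ran from 0.267 to 0.408. Without HFD-father 5 it was 0, as it was in the first run alone and after quantile normalization. Ptprn passed only without chow-father 3, chow-father 4, chow-father 5 or HFD-father 1. Rims1 passed without any array but HFD-father 5. In the other removals Vamp1, Snap23, Syt9 or Doc2b passed beside Rims1.

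Member levels were also set against the exocrine content of the preparations, and no member was called. For every gene, a slope on the acinar marker mean was fitted within the groups, in log2 units of level per log2 unit of the acinar mean. The slope was below 0 in 27 of 34 members (79.4%, against 55.6% of all genes), with a median of -0.12 over members and -0.02 over all genes. At an unadjusted p under 0.05, 9 members had a slope below 0 (26.5%, against 6.94% of all genes) and 0 a slope above 0 (7.24% of all genes). Those 9 were Sytl4, Snap25, Cadps, Syt5, Pclo, Rims2, Syt7, Stx3 and Ptprn2. With Benjamini-Hochberg adjustment over all probes, limma called 0 members, against 2.08% of all genes, and the lowest adjusted p was 0.0951.

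**Figure D3:**
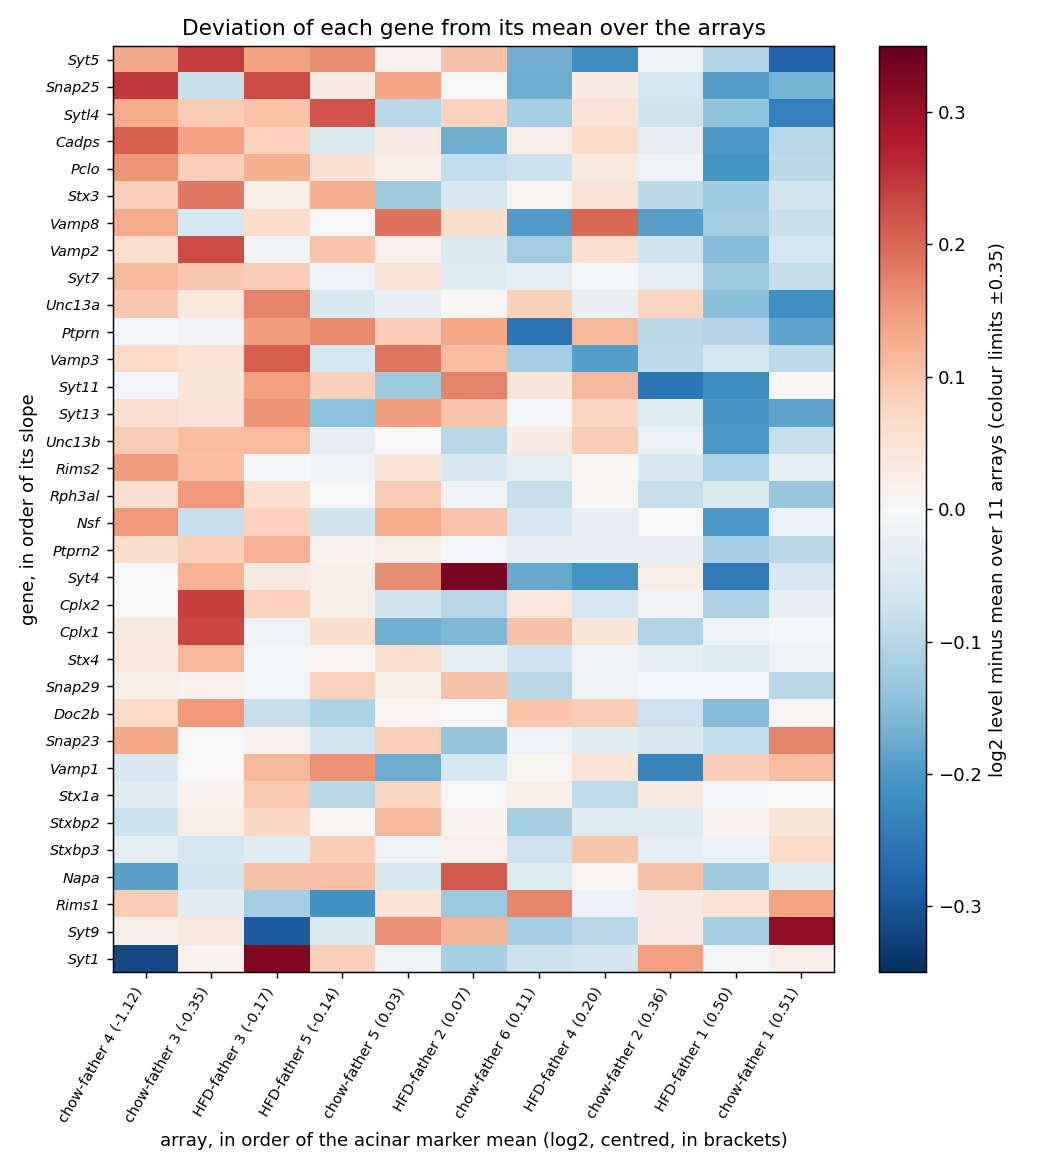
Rows are the 34 exocytosis genes in order of their slope, columns the 11 arrays in order of the acinar marker mean (centred log2 value in brackets), and colours the log2 level minus the gene's mean over the arrays. The upper rows are mostly red at the left, where the acinar mean is -1.12 in chow-father 4, and blue at the right, where it is 0.50 in HFD-father 1 and 0.51 in chow-father 1.

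Sytl4 had a slope of -0.24 ± 0.06 (SE; interval -0.37 to -0.11, adjusted p = 0.0951 with limma). Snap25 had -0.25 ± 0.08 (SE; adjusted p = 0.177) and Cadps -0.20 ± 0.07 (SE; adjusted p = 0.199). Without chow-father 1 and 4, the arrays farthest from the median acinar mean, these slopes were -0.35, -0.26 and -0.25 over 9 arrays (adjusted p = 0.36, 0.62 and 0.546), and 8 members had an unadjusted p under 0.05. In the first run alone the count was 5. With the replicate number as a block, a pairing that was not settled, the slopes of Sytl4, Snap25 and Cadps were -0.18, -0.14 and -0.02. Their adjusted p-values with limma were then 0.962, 0.995 and 0.999.

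At the other end, Syt1 had a slope of 0.14 ± 0.10 (SE), Rims1 of 0.07 ± 0.07 and Syt9 of 0.09 ± 0.10, with adjusted p-values from 0.613 to 0.745. All 3 slopes moved when single arrays were left out, and only that of Syt1 changed sign. The slope of Syt1 was -0.10 without chow-father 4, where its level was lowest at 5.96. That of Rims1 was 0.24 without chow-father 4 and 0.04 without HFD-father 1. That of Syt9 was 0.01 without chow-father 1 and 0.15 without chow-father 4. Both syntaxin-binding genes also had slopes near 0 (0.02 and 0.03), as had Stx1a (0.02), while all 4 vesicle SNAREs lay below 0, from -0.15 to -0.02.

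**Figure D4:**
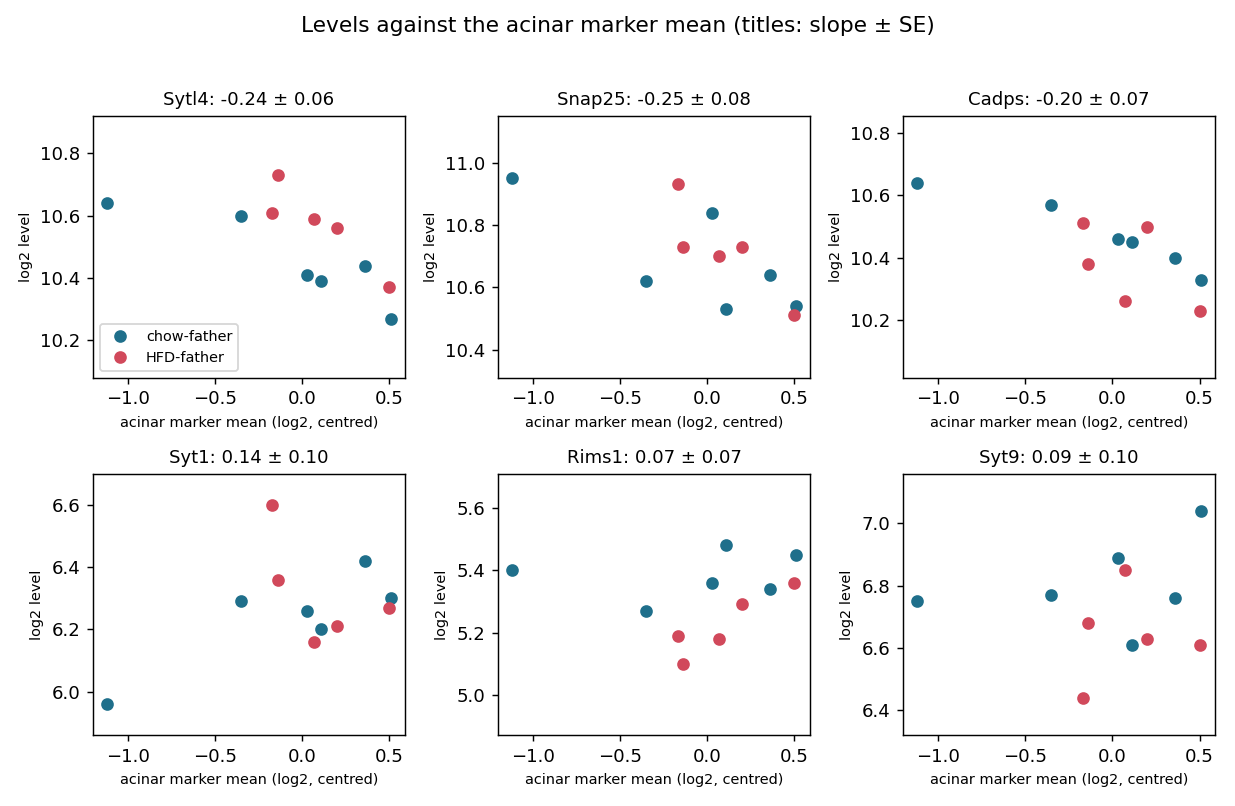
Each panel sets the log2 level of a gene (vertical axis) against the acinar marker mean, centred over the arrays (horizontal axis, log2), for 6 chow-father and 5 HFD-father arrays. The upper panels show the 3 members of lowest p with falling slopes (-0.24, -0.25 and -0.20), the lower panels the 3 of lowest p with rising slopes (0.14, 0.07 and 0.09).

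Of the islet endocrine markers, 12 of 13 measured had slopes below 0, with a median of -0.19, 9 were under an unadjusted p of 0.05 and 3 were called. Ductal markers (5 of 8 measured, 3 called) had slopes from 0.28 to 2.12, so acinar and ductal content cannot be told apart here. Acinar markers were higher by 0.17 on average in HFD-father arrays, with ranges that overlapped. That difference leans on chow-father 4 (11.56). The other chow-father arrays read 13.18, 13.03, 12.32, 12.70 and 12.78, beside an HFD-father mean of 12.76. With their mean as a covariate, the father-diet difference was -0.17 for Rims1, 0.20 for Ptprn and 0.15 for Sytl4 (adjusted p = 0.377, 0.37 and 0.377), and 0 members were called.

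Of 100 further genes of exocytosis, 84 were measured, and limma called 0 of them for father diet. At an unadjusted p under 0.05 there were 6 (7.14%, against 8.25% of all genes), 2 higher and 4 lower in HFD-father arrays. Rab27a, the granule GTPase that binds Sytl4, had a mean of 9.10 ± 0.03 (SD, 6 arrays) under chow-father and 9.25 ± 0.09 (SD, 5 arrays) under HFD-father. HFD-father arrays 1 to 5 read 9.27, 9.33, 9.29, 9.10 and 9.26, and all but HFD-father 4 lay above the highest chow-father array at 9.13. The difference was 0.15 ± 0.05 (SE; adjusted p = 0.438), 0.16 in the first run and 0.13 in the second.

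Syt10, a synaptotagmin, read 5.04 to 5.28 in chow-father and 4.84 to 5.03 in HFD-father arrays, ranges that did not overlap (as in 0.887% of all genes), and differed by -0.23 ± 0.06 (SE; adjusted p = 0.362), and Syt8, a relative that lacks full calcium binding, by -0.21 ± 0.07 (SE; adjusted p = 0.449). Only 29.5% of probes had a lower mean than Syt10. Stx7, a SNARE of late endosomes, differed by 0.18 ± 0.06 (SE; adjusted p = 0.43). The 10 further syntaxins measured all had differences above 0, with a median of 0.06, and 7 of 9 subunits of the exocyst, which tethers vesicles to the membrane, were above 0 with a median of 0.05, each family with 0 called. All 10 syntaxins stayed above 0 after quantile normalization and after median centring, while the exocyst count went to 5 and 9 of 9. Of all genes, 48.1% were below 0, 49% after quantile normalization and 37.2% after median centring. Within runs, Stx6 (-0.01) and Stx11 (-0.07) were below 0 in the first. In the second, which has 1 HFD-father array, Stx8 (-0.02), Stx16 (-0.01), Stx17 (-0.10) and Stx19 (-0.32) were. The remaining further syntaxins were at or above 0 in both runs.

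**Figure D5:**
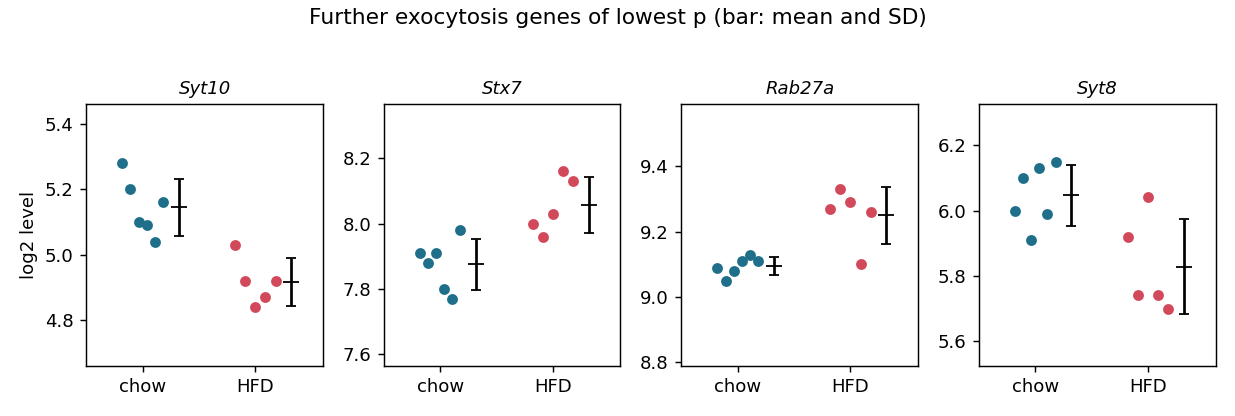
Points are log2 levels of the 4 further exocytosis genes of lowest p in the 6 chow-father and 5 HFD-father arrays, with group mean and SD as bars. Syt10 and Syt8 average lower and Stx7 and Rab27a higher in HFD-father arrays, by -0.23, -0.21, 0.18 and 0.15.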

How the data were processed

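Islet RNA was hybridised to 11 one-colour Affymetrix arrays. The authors deposited gene-level log2 values, already normalized between arrays as the medians show. Per the submitters' processing notes the tools included RMA and MAS5, with no role or version. Array medians ran from 6.137 to 6.202. In every probe the means of the first run (8 arrays) and the second (3) agreed to 5.83e-05. Values had thus been centred per run before deposit, a step that no label names. This centring can pull group differences toward 0. The main fit has no run term and does not count the centring, so its p-values can also be too small. With run as a block, limma's unadjusted p went from 0.0206 to 0.0282 for Rims1 and from 0.0325 to 0.041 for Ptprn. Runs were read from the ranges of sample numbers. An exon-level table whose features were not paired with genes was not used.

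Of 27342 probes, 15097 had 1 symbol, 323 several and 11922 none listed. Symbols of 15067 were updated through Entrez numbers to RefSeq's GRCr8 annotation. Levels of different probes were not compared.

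Groups were compared with limma 3.58.1 (lmFit, eBayes, R 4.3.3), two-sided, without covariates or filter, Benjamini-Hochberg over all probes, threshold 0.05. The acinar slope came from the same fit with group and the acinar marker mean as terms. Single members were also tested by exact permutation. Splits within runs respect the centring per run, and splits over all arrays do not. The fits were also run on simulated data, with added differences and slopes larger than those of any member. That run does not cover effects of the sizes reported for the members. Arrays have no read depth, and their number limits the precision. Whether sample numbers shared by the groups pair the samples was not settled, and the main fit treats the samples as unpaired. Of 5 same-numbered pairs, the deviations of 1 correlated above 0.1 (0.389, number 1). Centring the 3 arrays of the second run pushes their deviations apart, so the check cannot exclude pairing.

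Members and lists were chosen with earlier results of these data known. Values per array are given for Stx1a, Snap25, Vamp2, Syt7 and Syt9 and for the 8 further members of lowest p, slopes for the 3 of lowest p per direction, and the 4 further exocytosis genes of lowest p. Genes named beyond this and the motifs were chosen after their values were seen. Matplotlib 3.10.9 (Python 3.11.15) drew the figures.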

Additional observations from a re-analysis of the deposited data

Results flagged for a closer look

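In 3 of 82 groups looked at, 1 array stood apart from the rest of its group by more than Dixon's 95% limit, where chance flags about 1 in 20. Syt11 read 7.40 in HFD-father 1, and the nearest other HFD-father array read 7.70. Ptprn read 10.18 in HFD-father 1, with the nearest HFD-father array at 10.40. Cplx2 read 9.23 in chow-father 3, with the nearest chow-father array at 9.03. HFD-father 1 also had the highest lymphocyte marker mean (6.09) and one of the highest acinar means (13.17), and their part in these values was not tested.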

How the results depend on the processing

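Limma called 0 members for father diet and for the acinar slope after quantile normalization, after median centring, without dim probes, with a replicate block or a run block, in the first run alone, with probes averaged per gene and without each array, and 0 for father diet with the acinar mean as covariate. The lowest adjusted p of a member for the slope under these was 0.0529, without dim probes. The median father-diet difference of the members ran from -0.03 to 0.01 over these settings and from -0.04 to 0.02 without each array. The members at an unadjusted p under 0.05 for father diet, 2 in the report, numbered 0 after quantile normalization, 0 in the first run alone, and 0 to 5 without each array. For the acinar slope the 9 became 1 with the replicate block, 5 in the first run alone, and 6 to 13 without each array. With the replicate number as a block, 3 members had an unadjusted p under 0.05 for father diet. Whether that number pairs the samples was not settled, and 1 of 5 HFD-father arrays correlated best with its own number.

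Differences near 0 changed sign under some settings, and the cause was not tested. After quantile normalization these were Stx3 (-0.01), Vamp3 (-0.03), Stxbp2 (0.00) and Cplx1 (0.01). After median centring they were Vamp2 (0.00), Syt4 (0.00), Syt13 (0.02), Unc13a (0.01), Rph3al (0.03), Pclo (0.00) and Ptprn2 (0.02). With the replicate block they were Vamp3 (-0.02), Stxbp2 (0.00) and Syt5 (0.00), and the slope of Syt9 (0.00). In the first run alone they were Stx1a (0.00), Stx3 (-0.06), Syt5 (-0.04), Syt13 (0.06), Unc13a (0.01) and Rph3al (0.00). With the acinar marker mean as covariate they were Vamp2 (0.00), Syt13 (0.01), Unc13a (0.01), Rph3al (0.02), Pclo (0.01) and Ptprn2 (0.02). Without the 2 arrays farthest from the median acinar mean, chosen after seeing the data, the slope of Syt1 was -0.13.

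Without each array, father-diet differences that changed sign ran from -0.07 to 0.01 for Cplx1, -0.07 to 0.00 for Nsf, -0.06 to 0.02 for Pclo, -0.04 to 0.02 for Ptprn2, -0.03 to 0.03 for Rph3al, -0.02 to 0.09 for Snap25, -0.03 to 0.04 for Stx3, 0.00 to 0.05 for Stxbp2, -0.05 to 0.04 for Syt13, -0.11 to 0.03 for Syt4, -0.03 to 0.09 for Syt5, -0.06 to 0.02 for Unc13a, -0.05 to 0.02 for Vamp2 and -0.05 to 0.05 for Vamp3. The slope of Syt1 ran from -0.10 to 0.19. Probes low on the scale (Rims1, Doc2b, Syt10) have no detection call. Of these, only Syt10 fell in the lowest 33.3% left out in the setting without dim probes. Levels near the top of the scale, as of hormones and digestive enzymes, can be compressed.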

Other observations

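Among the 84 further exocytosis genes, 2 were called for the acinar slope, both above 0, a share near the 2.08% of all genes. Rab27b, a GTPase known on zymogen granules of acinar cells, had a slope of 0.82 (adjusted p = 0.00465 with limma); its level was lowest in chow-father 4 (5.99) and highest in chow-father 1 (7.51). Its relative Rab27a had a slope of -0.03. The call of Rab27b was lost without chow-father 4 (0.82, adjusted p = 0.18), without both arrays farthest from the median acinar mean (0.66, adjusted p = 0.393) and with the replicate block (0.86, adjusted p = 0.573). Stx19, a syntaxin, had a slope of 0.74 (adjusted p = 0.0237), which did not pass without chow-father 1 (0.74, adjusted p = 0.0959), without HFD-father 1 (0.66, adjusted p = 0.0571), in the first run alone (0.71, adjusted p = 0.129) or with the replicate block (0.70, adjusted p = 0.496). It was 1.26 without chow-father 4.

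The further genes held 10 measured scaffolds of the active zone, the release site of nerve terminals. Of these, 9 had slopes below 0 (55.6% of all genes), with a median of -0.18 (-0.02 over all genes). At an unadjusted p under 0.05 there were 6 below 0 (6.94% of all genes), and 0 were called. The members Rims1, Rims2 and Pclo are not in this count and had slopes of 0.07, -0.13 and -0.19. Erc2 had the steepest, -0.34 (adjusted p = 0.0592), and Bsn, which encodes the partner scaffold of Pclo, had -0.20 (adjusted p = 0.23). Their father-diet differences were -0.05 each. Markers of Schwann cells and nerve (12 of 15 measured) had no slope with an unadjusted p under 0.05.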
